A study of Mus musculus with 104 samples.

Results

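The nuclear-encoded genes of the mitochondrial respiratory chain were followed in primary mouse hepatocytes transfected with 6 small interfering RNAs (siRNAs) at 4 doses. They were chosen by gene symbol: names that begin with Ndufa, Ndufb, Ndufc, Ndufs, Ndufv, Uqcr or Atp5, names that begin with Cox and a digit from 4 to 8, and the 4 Sdh genes. Names with -ps, a suffix used for pseudogene copies, were dropped (14 names), and a mean of at least 1 CPM (a count scaled by the size of its library) over all libraries was required. Of 55416 genes in the files, 98 met the naming rule and 85 of these reached the level, and all 85 were tested in every comparison. The members nearest to the level were Ndufaf3 at 3.55 CPM on the inside and Cox6c2 at 0.224 CPM on the outside. Of the 14 dropped names 12 are pseudogenes in the GENCODE vM39 annotation and 2 are protein coding. These are Cox5b-ps at 0.485 CPM and Ndufb1-ps at 34.8 CPM, whose identifier there belongs to Ndufb1, an expressed complex I subunit that the naming rule leaves out.

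D1, D2 and D3 are directed at Hao1, the gene of glycolate oxidase, and D4, D5 and D6 at Ttr, the gene of the serum carrier transthyretin. Within each set the guide has the same base sequence: D1 and D4 are the parent siRNAs, while D2 carries GNA-C, D3 GNA-isoC, D5 GNA-G and D6 GNA-isoG, where GNA is glycol nucleic acid, an acyclic backbone placed at a single nucleotide of the guide seed and iso marks its isocytosine or isoguanine base. Each siRNA was lipid-transfected at 0.1, 1, 10 and 50 nM, with 4 libraries for each of the 24 siRNA and dose groups, and RNA was taken after 24 hours. The 8 mock libraries were the common control of all 24 comparisons, so those comparisons are not independent of each other. Strain, age and sex of the source animals were not given in the labels. Cells were transfected in wells of a plate, and libraries of a group may come from separate wells. Separate animals or cell batches are not stated, so that p-values measure the spread between these libraries, which may be technical. The libraries held 3409963 to 6160626 counts, of which the 85 genes took 0.714% to 0.933%.

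The respiratory chain passes electrons from NADH (at complex I) and from succinate (at complex II) to ubiquinone, then through complex III and cytochrome c to complex IV, where oxygen is reduced. Complexes I, III and IV pump protons across the inner mitochondrial membrane, and complex V, the ATP synthase, uses the returning protons to make ATP. Most subunits are encoded in the nucleus and imported, and a small set of core subunits is encoded in mitochondrial DNA. Hepatocytes rely on this chain for the energy of gluconeogenesis, urea synthesis and fatty acid oxidation.

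The 85 genes comprised 36 subunits of complex I, 8 complex I assembly factors (Ndufaf), all 4 subunits of complex II, 8 subunits of complex III, 12 of complex IV and 17 of complex V. Ndufa4 was placed with complex IV, where its protein is found, despite its name. Of the 36 complex I genes, 7 encode core subunits that carry the flavin or iron-sulphur clusters or line the electron path, and 29 encode accessory subunits.

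Of the 10 members called lower with D1 at 50 nM, the 5 that hold the letters ATCGACA in a coding exon are shown beside the Hao1 site, which holds them too. These letters are the complement of guide positions 2 to 8, the seed, and are in capitals, with a following A also in capitals where present. All stretches are 21 bases on the sense strand of coding exons in the GRCm39 genome.
Hao1, exon 8, chr2:134340220-134340240, minus strand: gaatgtgaaagtcATCGACAA
Atp5j, exon 4, chr16:84624859-84624879, minus strand: caaatttgaagtcATCGACAA
Sdha, exon 15, chr13:74471261-74471281, minus strand: gtacagacctgttATCGACAA
Ndufs8, exon 6, chr19:3959214-3959234, minus strand: gacacgctatgacATCGACAt
Atp5g2, exon 4, chr15:102573591-102573611, minus strand: catttcaagggacATCGACAc
Atp5pb, exon 5, chr3:105858965-105858985, minus strand: aatccaggatgcaATCGACAt
The Atp5j stretch had 16 of 21 bases identical to the Hao1 site with an unbroken run of 13, and the Sdha, Ndufs8 and Atp5g2 stretches had 12 each and Atp5pb 11. The other lower members, Ndufv1, Ndufb10, Ndufab1, Ndufa10 and Cox7c, held no 7-base match in their canonical transcripts, and binding of the guide to any of these genes was not measured. Ndufv1 did hold the 6 letters TCGACA, the complement of guide positions 2 to 7, in its coding sequence, and 23.2% of the 10672 genes tested with D1 at 50 nM that have a coding transcript held them anywhere in it, as did 16 of the 85 members. For Ndufv1, the gene with the largest fall, the most similar stretch is shown with the bases identical to the Hao1 site in capitals.
Ndufv1, exon 8, chr19:4058104-4058124, minus strand: cAtTGTGAAAGcCATCGctcg
That stretch had 14 identical bases, and 34.3% of the same 10672 genes had a stretch with at least 14, while 1.06% had at least 16.

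The targets were read first as a check of the labels. Hao1 was at 27.7 to 38.7 CPM in mock. At 0.1 nM it averaged 12.3 ± 2.52 CPM with D1, 13.8 ± 0.428 with D2 and 6.84 ± 2.25 with D3 (SD, n = 4), and at 50 nM 2.24 ± 2.01, 1.75 ± 0.511 and 0.798 ± 0.382 CPM. Ttr was at 538 to 715 CPM in mock. At 50 nM it averaged 1.203 ± 0.658 CPM with D4, 0.988 ± 0.431 with D5 and 1.19 ± 0.418 with D6. Every library given a siRNA lay below all mock libraries for that siRNA's target. Replicate 2 of D5 at 0.1 nM held 73.0 CPM of Ttr, against 1.16 to 3.35 in the other libraries of its group. Replicate 3 of D3 at 10 nM held 441 CPM of Ttr, below all mock libraries, against 934 to 1001 in the others, above all mock. Each target also moved with the other set. At 50 nM Hao1 was called lower with D4, D5 and D6 (log2 fold changes -0.79, -0.44 and -0.65), and Ttr higher with D1, D2 and D3 (0.63, 0.33 and 0.56). The calls with D5 and D2 were lost in 3 and 1 of 20 alternatives.

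Libraries of one group differed more than sampling noise. A chi-square over genes divided by its degrees of freedom ran from 1.67 to 13.5 in the 172 pairs of replicates, with the highest values in pairs with replicate 2 of D4 at 10 nM, whereas the 2 sequencing runs of a library gave 0.990 to 1.07. Mock replicates 1 and 2 were the shallowest mock libraries, at 3452580 and 3409963 counts, and had the lowest share of respiratory chain counts among mock, 0.730% and 0.740%, against 0.795% to 0.840% in the other 6. Within the siRNA groups, replicate 4 had the highest summed level of the 85 genes in 16 of 24 and the lowest in 0.

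In mock, complex V genes summed to 3387 CPM, complex I to 1671, complex IV to 1372, complex III to 829, complex II to 586 and the assembly factors to 108 CPM. Per kilobase of the canonical transcript, a scale on which genes can be set side by side, Atp5b (catalytic beta subunit of the F1 head) led with 659 ± 30.8 CPM per kb, followed by Cox4i1 (complex IV) at 377 ± 12.6, Atp5a1 (alpha subunit of the F1 head) at 280 ± 17.5 and Cox6a1 at 249 ± 18.9 (SD, n = 8). In complex I the highest were Ndufb8 at 82.6 ± 7.57 and Ndufa6 at 73.7 ± 7.89 CPM per kb, which do not differ beyond their spread. Sdhd led complex II at 88.5 ± 6.79 and Uqcr10 complex III at 112 ± 9.76, close to Uqcrc1, a core protein of complex III, at 107 ± 4.52. The median was 138 CPM per kb in complex IV, 73.0 in complex V, 71.2 in complex III, 57.7 in complex II, 35.0 in complex I and 6.38 among assembly factors. Annotated transcript ends differ between genes, and reads shared with pseudogene copies were not counted, so the levels of small subunits are uncertain.

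Isoforms known from muscle, lung or testis were near the floor. Cox4i2 had 10 counts in all libraries together against a mock level of 295 ± 9.90 CPM for Cox4i1. Cox6a2 had 50, Cox7a1 64 and Cox6b2 11 counts over all libraries, and Cox8b and Ndufa4l2 had 0. Among the 3 genes for the c-ring subunit of complex V, whose mature proteins are alike, Atp5g3 was at 231 ± 16.9 CPM, Atp5g2 at 26.4 ± 1.91 and Atp5g1 at 19.5 ± 2.98 CPM in mock.

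As a whole the 85 genes moved little. The median log2 fold change of the members against mock lay between -0.08 and -0.02 at 0.1 nM, between -0.06 and -0.02 at 1 nM, between -0.04 and 0.14 at 10 nM and between -0.08 and 0.04 at 50 nM, where the median over all genes tested lay between -0.01 and 0.01. Of 2040 tests of a member against mock, 73 passed an adjusted p of 0.05 (edgeR quasi-likelihood test, Benjamini-Hochberg over all genes tested), and 7 of these had an absolute log2 fold change over 0.5. In all, 42 members passed at least once, 23 of them higher only, 18 lower only and 1 (Ndufv2) in both directions, and 43 never did. Both calls of Ndufv2 were unstable: that with D3 at 10 nM (0.23) was lost in 9 of 20 alternatives, and that with D6 at 10 nM (-0.21) in 12, with a log2 fold change as small as -0.07. Bulk RNA cannot tell fewer cells from less RNA per cell.

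**Figure D1:**
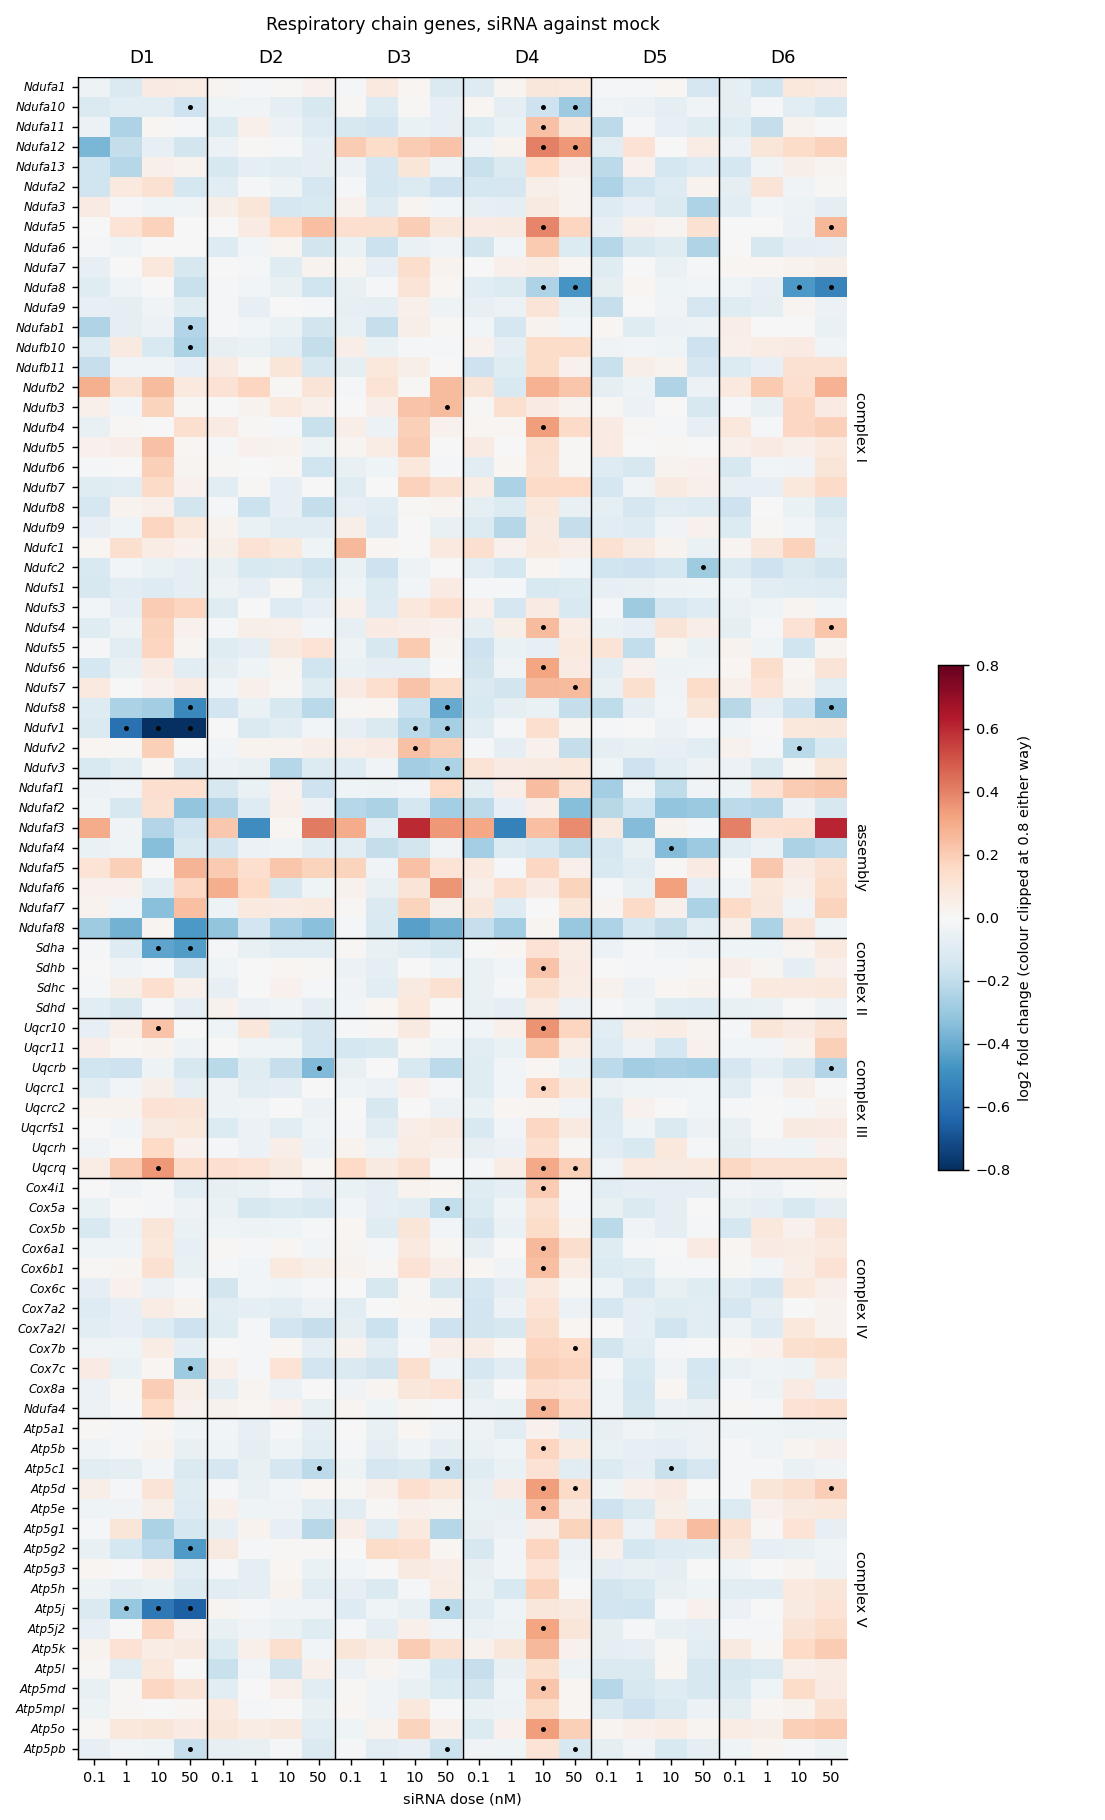
Log2 fold change of 84 of the 85 genes (rows, grouped by complex) against mock in the 24 siRNA and dose groups (columns, dose in nM), with colour clipped at 0.8 either way and dots where the adjusted p was under 0.05. The darkest cells are Ndufv1 with D1 at 10 and 50 nM (-1.34 and -1.55), and the column with the most dots is D4 at 10 nM (22 of 85).

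At 0.1 nM no member passed with any siRNA. The share of all genes tested that passed in either direction was 0.32% with D1, 0.00885% with D2, 0.00886% with D3 and also with D4, 0% with D5 and 0.0532% with D6. With D2, D3 and D4 this was 1 gene, the siRNA's own target, and with D5 Ttr itself did not pass. Of the member tests, 85 in each of 6 comparisons, 28 had an unadjusted p under 0.05 in the edgeR test, which chance alone gives in about 1 of 20. The share of all genes under that unadjusted threshold is not given here. At 1 nM 2 members passed, both lower with D1 (Ndufv1 and Atp5j), where 0.632% of all genes passed. None did with D2 (background 0.00886%, which was 1 gene, the target Hao1), D3 (0.407%), D4 (2.07%), D5 (0.0444%) or D6 (2.13%).

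At 10 nM, D1 had 2 members higher and 3 lower, where 8.43% of all genes tested were higher and 10.6% lower. D2 had 0 in either direction (1.17% higher and 1.09% lower). D3 had 1 higher and 1 lower (8.54% and 8.9%). D5 had 0 higher and 2 lower (4.58% and 3.54%), and D6 0 higher and 3 lower (11.9% and 13.9%). D4 had 20 higher and 2 lower, or 23.5% and 2.35% of the 85, where 12.2% of all genes were higher and 14.4% lower.

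At 50 nM, D1 had 0 members higher and 10 lower (11.7% of all genes higher and 14.2% lower), and D2 0 higher and 2 lower (3.08% and 2.96%). D3 had 1 higher and 7 lower (13.5% and 14.8%). D4 had 5 higher and 4 lower (16.7% and 17.9%), D5 0 higher and 1 lower (4.58% and 1.97%), and D6 3 higher and 4 lower (15% and 16.5%). These 50 nM comparisons were fitted without a replicate block. In each, the share of members that passed in a direction was below that of all genes tested. With a replicate block more members were higher with D3, D4 and D6, and fewer were lower with D1, D3, D4 and D6. That block also changed the control. Mock libraries whose number no siRNA library shares did not enter the difference, while mock replicates 1 and 2 did. An effect of the block cannot be told apart from that of the smaller control. The balance turned with D3 and D6, where more members were then higher than lower. Those counts are given in the last section, without the shares of all genes from the same fits, so they do not set the members apart from all genes. The counts without the block are small and also moved with single libraries. With D6 at 50 nM 0 members were higher without replicate 2 of D6 and 0 without replicate 4, when 4 and 7 were lower. With D4 at 50 nM 1 was higher and 3 lower without replicate 1 of D4, and with D2 at 50 nM 0 passed without replicate 2 or without replicate 3 of D2. With D1 at 10 nM 9 were higher without replicate 3 of D1. The shares of all genes in these reduced fits are not given, so the counts show only how the number of members moved.

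**Figure D2:**
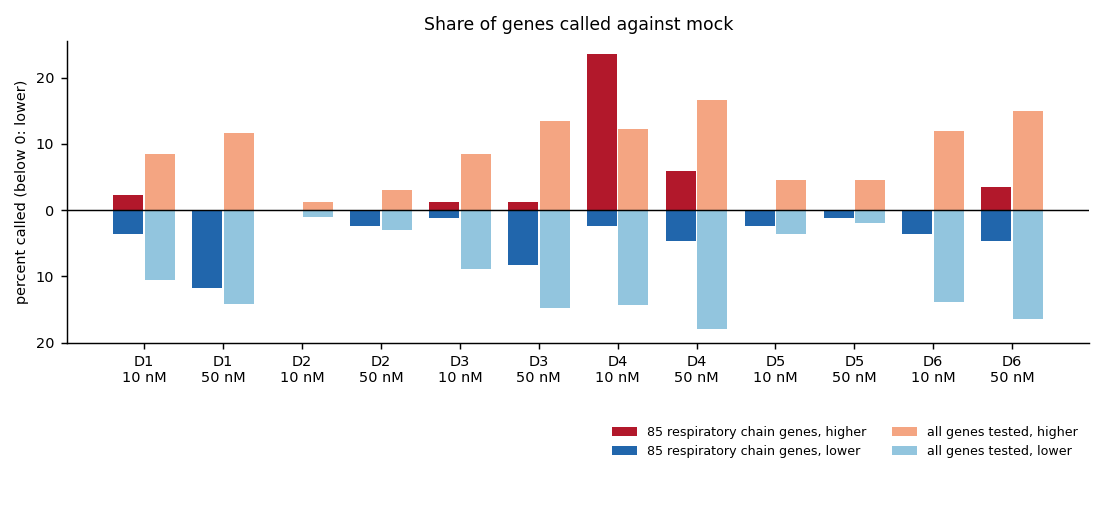
Percent of genes called higher (above 0) and lower (below 0) against mock at 10 and 50 nM, for the 85 respiratory chain genes (dark) and all genes tested (light). The members' bar is taller than that of all genes only for the higher calls with D4 at 10 nM, 23.5% against 12.2%.

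In complex I the largest change was that of Ndufv1, the subunit that holds the flavin where NADH is oxidised. Its level in mock was 90.8 to 102.5 CPM (median 95.0). With D1 it was 93.2, 81.4, 89.6 and 92.7 CPM at 0.1 nM, 55.1, 58.4, 70.0 and 70.7 CPM at 1 nM, 36.7, 39.6, 35.5 and 40.9 CPM at 10 nM and 31.9, 44.3, 27.2 and 27.4 CPM at 50 nM. From 1 nM on every D1 library lay below every mock library. The log2 fold change of Ndufv1 was -0.12 ± 0.0611 (SE, adjusted p = 0.698) at 0.1 nM, -0.60 ± 0.0682 (6.31e-08) at 1 nM, -1.34 ± 0.0713 (9.44e-16) at 10 nM and -1.55 ± 0.0902 (2.72e-16) at 50 nM. At 50 nM Ndufv1 ranked 79 from the lowest of the 11251 genes tested, with the target Hao1 below it.

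With D3, Ndufv1 also fell, to 87.5, 78.2, 83.9 and 81.1 CPM at 10 nM and to 76.8, 78.4, 81.9 and 80.2 CPM at 50 nM, all 8 libraries below the lowest mock library. The log2 fold change of Ndufv1 was -0.22 ± 0.0604 (adjusted p = 0.0103) and -0.27 ± 0.0585 (0.000508). The 10 nM call was lost in 3 of 20 alternatives, with run 1 alone, with a replicate block and without D3 replicate 2, and its log2 fold change was as small as -0.14 among them, while the 50 nM call held in all 20. With D2 the Ndufv1 level at 50 nM was 90.9, 98.4, 87.1 and 104.03 CPM, overlapping mock, with a log2 fold change of -0.02 ± 0.0611 (adjusted p = 0.884).

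Ndufs8, a core subunit with iron-sulphur clusters, was at 28.8 to 42.9 CPM in mock (median 33.0). At 50 nM it was 22.6, 27.6, 19.96 and 24.3 CPM with D1, 24.4, 27.4, 23.9 and 26.3 CPM with D3, and 26.8, 24.7, 25.6 and 29.4 CPM with D6. All D1 and D3 libraries lay below mock and 1 of the 4 D6 libraries overlapped it. Ndufs8 had a log2 fold change of -0.52 ± 0.108 (adjusted p = 0.000329) with D1, -0.40 ± 0.0991 (0.00175) with D3 and -0.35 ± 0.0988 (0.00598) with D6. The D6 call was lost with a replicate block (adjusted p = 0.0855), and those with D1 and D3 held in all 20 alternatives. With D2 at 50 nM Ndufs8 was 29.0, 28.9, 27.9 and 32.2 CPM, with a log2 fold change of -0.21 ± 0.0972 (0.204).

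The remaining complex I genes lower with D1 at 50 nM changed less. Ndufb10 had a log2 fold change of -0.26, Ndufab1 (the mitochondrial acyl carrier protein) of -0.24 and Ndufa10 of -0.17. Of the core subunits, Ndufs1, Ndufs3 and Ndufs7 had 0 lower calls over the 24 comparisons, and Ndufs7 was called higher once, with D4 at 50 nM (0.25 ± 0.0891, adjusted p = 0.025).

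In complex II the gene that fell was Sdha, the flavoprotein that oxidises succinate. It was at 223 to 252 CPM in mock (median 243). With D1 Sdha was 180.5, 172.4, 188.0 and 186.7 CPM at 10 nM and 179.0, 186.9, 168.3 and 170.9 CPM at 50 nM, all below every mock library. Sdha had a log2 fold change of -0.42 ± 0.0543 (adjusted p = 4.93e-07) and -0.45 ± 0.0535 (2.31e-08). With D3 at 50 nM it was -0.12 ± 0.0483 (0.0574) and with D2 -0.09 ± 0.0495 (0.335). Sdhb, the iron-sulphur subunit, was called once, higher with D4 at 10 nM, and the membrane anchors Sdhc and Sdhd were never called.

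In complex V the gene with the largest fall was Atp5j, coupling factor 6 of the peripheral stalk. Mock libraries held 82.9 to 107 CPM (median 99.4). With D1 Atp5j was 77.0, 81.9, 77.0 and 83.6 CPM at 1 nM, 65.1, 64.6, 71.6 and 65.7 CPM at 10 nM and 56.9, 65.2, 55.0 and 70.0 CPM at 50 nM, where 10 nM and 50 nM did not overlap mock. The log2 fold change of Atp5j was -0.30 ± 0.0657 (adjusted p = 0.00975), -0.57 ± 0.0721 (3.15e-07) and -0.66 ± 0.0761 (1.16e-08). The 1 nM call was lost in 2 of 8 alternatives. With D3 at 50 nM it was -0.22 ± 0.0656 (0.0106), a call lost in 2 of 20 alternatives, and with D2 -0.03 ± 0.0670 (0.852).

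Atp5g2, a c-ring gene, was at 24.6 to 29.7 CPM in mock and at 20.6, 20.2, 20.8 and 16.3 CPM with D1 at 50 nM, with no overlap. Atp5g2 had a log2 fold change of -0.45 ± 0.107 (adjusted p = 0.00145) with D1, and 0.01 ± 0.0942 (0.967) with D2 and 0.01 ± 0.0945 (0.926) with D3. Atp5pb, the b subunit of the peripheral stalk, fell by 0.18 with D1 and by 0.17 with D3 on the log2 scale at 50 nM, and its D1 libraries overlapped mock. Those calls of Atp5pb were lost in 4 and 2 of 20 alternatives. Atp5c1, the gamma subunit that turns within the F1 head, was called lower with D2 (-0.21) and D3 (-0.19) at 50 nM and with D5 at 10 nM (-0.18). The calls of Atp5c1 were lost in 3, 1 and 11 of 20 alternatives, that with D2 when replicate 2 or 3 of D2 was left out and that with D5 when replicate 1, 2 or 3 of D5 or any of 5 mock libraries was.

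**Figure D3:**
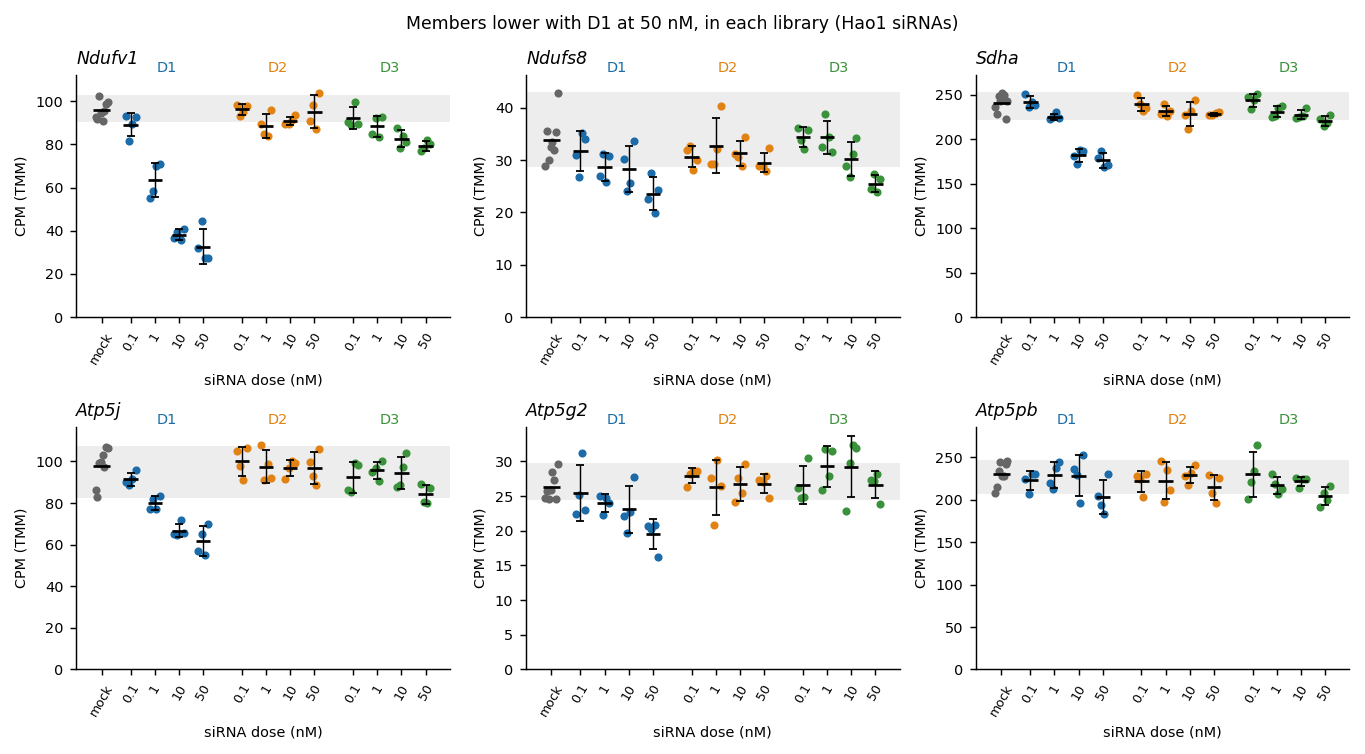
CPM (TMM-scaled, y axis from 0) of Ndufv1, Ndufs8, Sdha, Atp5j, Atp5g2 and Atp5pb in each mock library (grey) and each library of D1 (blue), D2 (orange) and D3 (green) by dose in nM, with bars for the mean, whiskers for the SD of 4 libraries and a grey band for the range of mock. Ndufv1 fell from 95.8 CPM on average in mock to 32.7 with D1 at 50 nM, while the D2 mean at 50 nM was 95.1.

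In complexes III and IV few genes passed with the Hao1 siRNAs. Uqcrq, a small subunit of complex III, rose with D1 at 10 nM, from 86.7 to 102.7 CPM in mock to 133.1, 119.3, 114.5 and 133.4 CPM (log2 fold change 0.34 ± 0.0615, adjusted p = 8.68e-05). Uqcr10 was also called higher there (0.23 ± 0.0806, adjusted p = 0.0455), a call that did not hold in 11 of 20 alternatives. Uqcrb was lower with D2 at 50 nM (-0.36 ± 0.0904, adjusted p = 0.0124), where its lowest mock values, 47.2 and 44.1 CPM, were those of mock replicates 1 and 2, and the call was lost in 4 of 20 alternatives. In complex IV, Cox7c was lower with D1 (-0.28) and Cox5a with D3 (-0.20), both at 50 nM, the latter call lost in 2 of 20.

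The number of members called with D1 at 50 nM, 10 with all libraries, moved with single libraries. It was 6 without replicate 2, 5 without replicate 3 and 7 to 13 without each of the other D1 or mock libraries. Ndufv1, Atp5j, Ndufs8, Atp5g2 and Sdha passed in all 20 alternatives, and Ndufb10, Ndufa10, Cox7c and Ndufab1 failed in 11, 11, 9 and 6 of them.

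With the Ttr siRNAs the complex I genes Ndufa8 and Ndufa10 were called lower in 4 and 2 comparisons. At 10 nM of D4 these calls were the least stable, that of Ndufa10 (adjusted p = 0.0449) being lost in 12 of 20 alternatives and that of Ndufa8 in 5, among them those without D4 replicate 1 or 3 for both genes. Ndufa8, an accessory subunit of the intermembrane space, was at 41.8 to 52.3 CPM in mock (median 48.0). It was 37.2, 45.7, 37.0 and 41.6 CPM at 10 nM and 34.3, 28.4, 37.1 and 38.3 CPM at 50 nM with D4, and 35.1, 30.1, 35.8 and 38.4 CPM at 10 nM and 33.7, 39.0, 31.7 and 28.2 CPM at 50 nM with D6. All libraries but replicate 2 of D4 at 10 nM lay below mock. The log2 fold change of Ndufa8 for D4 was -0.25 ± 0.0829 (adjusted p = 0.0248) at 10 nM and -0.47 ± 0.0846 (2.11e-05) at 50 nM. For D6 it was -0.46 ± 0.0842 (4.89e-05) at 10 nM and -0.53 ± 0.0855 (6.76e-06) at 50 nM. With D5 it was -0.04 ± 0.0769 (0.839) at 10 nM and -0.02 ± 0.0830 (0.917) at 50 nM.

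Ndufa10, an accessory subunit on the matrix side of the membrane arm, was at 117 to 142 CPM in mock and at 109.0, 104.5, 109.0 and 110.3 CPM with D4 at 50 nM, all below mock (-0.29 ± 0.0567, adjusted p = 8.31e-05). With D6 at 50 nM Ndufa10 was 113.3, 128.6, 104.2 and 133.7 CPM (-0.14 ± 0.0632, 0.0828), which overlaps mock.

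With D4 at 10 nM genes of all the complexes were called higher, by small amounts: 6 of 36 in complex I, 1 of 4 in complex II, 3 of 8 in complex III, 4 of 12 in complex IV, 6 of 17 in complex V and 0 of 8 assembly factors. Of all genes tested 12.2% were higher there, and the counts of single complexes were not tested against that share. The complex II call, Sdhb, was lost without replicate 3 of D4 (adjusted p = 0.0569). The median log2 fold change was 0.17 in complexes III and V, 0.16 in complex IV, 0.12 in complex II and 0.09 in complex I, and 78 of the 85 genes had a value above 0. The summed level of the 85 genes was 8339 to 9125 CPM in the 4 libraries and 7256 to 8446 CPM in mock, so the groups overlapped.

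In complex V, Atp5b was 1399, 1434, 1351 and 1522 CPM with D4 at 10 nM and 1160 to 1334 CPM in mock (0.17 ± 0.0530, adjusted p = 0.0159). Atp5j2 had a log2 fold change of 0.32 ± 0.0694 (0.000804), and Atp5d, the delta subunit of the F1 head, 0.33 ± 0.0797 (0.00205), with 190.4 CPM in replicate 2 against 132.6 to 140.1 CPM in the other 3 and a log2 fold change as small as 0.19 among the alternatives, all of which kept the call. In complex IV, Cox6b1 was 167.6, 174.1, 164.4 and 178.7 CPM, above all mock libraries (128.1 to 158.4 CPM), with a log2 fold change of 0.24 ± 0.0612 (0.00383). Cox6a1, Ndufa4 and Cox4i1 had 0.26, 0.27 and 0.20. The call of Cox4i1 was lost with a replicate block and without replicate 2 of D4, and its log2 fold change was as small as 0.12 among the alternatives, while that of Atp5b was lost without replicate 4 of D4. In complex III, Uqcr10 was 59.5, 68.8, 62.4 and 68.8 CPM, above all mock libraries (41.2 to 54.3 CPM; 0.36 ± 0.0775, 0.000632), and Uqcrq was called too (0.30 ± 0.0726, 0.00191). In complex I the largest were Ndufa12 (0.40 ± 0.125), which has a -ps copy at 11.8 CPM that shares its name, and Ndufa5 (0.39 ± 0.103), calls lost in 2 and 1 of 20 alternatives, the former without replicate 4 of D4 and with the 6 deepest mock libraries.

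At 50 nM of D4 the complex I, III, IV and V members called higher were Ndufa12, Ndufs7, Uqcrq, Cox7b and Atp5d, and Cox4i1 and Cox6b1 had log2 fold changes of 0.00 and 0.06. Most of these calls moved with the processing: of 20 alternatives, Atp5d was lost in 12, Cox7b in 9, Ndufs7 in 6, Ndufa12 in 4 and Uqcrq in 1. All 5 were lost without D4 replicate 1. Without replicate 2 of D4 at 10 nM, the library that stood apart, 17 members were called, and 17 were called with only the 6 deepest mock libraries, an alternative chosen after seeing the data. Spiked-in control RNA took 0.864% ± 0.150 of counts with D4 at 10 nM and 0.582% ± 0.106 in mock. The share was as high in groups with fewer members called higher, at 0.921% ± 0.405 with D4 at 50 nM and 0.859% ± 0.256 with D3 at 10 nM, and its part in the result was not tested.

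**Figure D4:**
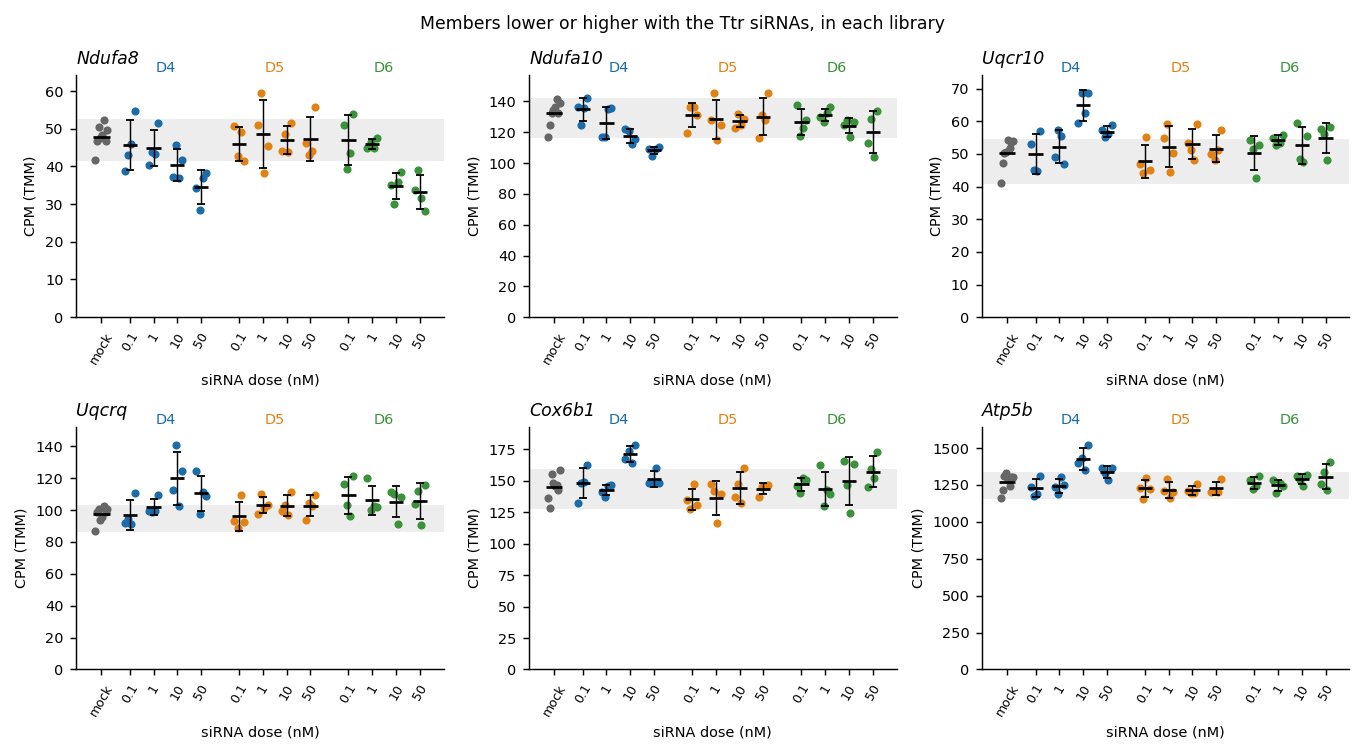
CPM (TMM-scaled, y axis from 0) of Ndufa8, Ndufa10, Uqcr10, Uqcrq, Cox6b1 and Atp5b in each mock library (grey) and each library of D4 (blue), D5 (orange) and D6 (green) by dose in nM, with bars for the mean, whiskers for the SD of 4 libraries and a grey band for the range of mock. Ndufa8 was called lower with D4 and D6 at 10 and 50 nM and had no call with D5, and Cox6b1 was above the band in all 4 libraries of D4 at 10 nM.

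A comparison of 50 nM with 0.1 nM of the same siRNA does not use the mock libraries. With D1, 0 members were higher and 6 lower (8.2% of all genes higher and 11.2% lower): Ndufv1 (-1.44), Atp5j (-0.54), Sdha (-0.44), Ndufs8 (-0.41), Atp5g2 (-0.39) and Cox7c (-0.35). With D2 0 members passed in either direction (0.883% and 0.964%). With D3, 0 were higher and 3 lower (8.44% and 11.8%), namely Ndufs8 (-0.43), Ndufv1 (-0.21) and Atp5c1 (-0.16). With D4, 7 were higher and 2 lower (10.8% and 15%), the lower being Ndufa8 (-0.40) and Ndufa10 (-0.32). With D5 0 passed (1.35% and 0.59%). With D6, 3 were higher and 2 lower (10.8% and 13.6%), with Ndufa8 (-0.50) among the lower. Of 11 alternatives, the D1 calls of Atp5g2, Ndufs8 and Cox7c were lost in 7, 4 and 3, and the D3 calls of Ndufv1 and Atp5c1 in 8 each. The 7 higher with D4 became 1, 1, 2 and 15 without the libraries numbered 1, 2, 3 and 4, and the 3 higher with D6 (Ndufaf1, Atp5d and Ndufs4) became 2, 0, 2 and 1. The lower calls of Ndufa8 with D4 and D6 and of Ndufa10 with D4 held in all 11.

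The siRNAs of one target differ only in the chemistry of a single seed nucleotide and were compared with each other at each dose in 24 tests across all genes, some of which share libraries. At 0.1 nM 0 members differed in any of the 6 pairs, where 0% of all genes tested passed. At 1 nM Ndufv1 was lower with D1 than with D2 (-0.48 ± 0.0770, adjusted p = 0.000287; background 0.459%) and than with D3 (-0.48 ± 0.0790, 0.000816; background 1.43%), as was Atp5j, whose calls were lost in 3 and 2 of 7 alternatives. The other 1 nM pairs had 0 members, with 0% of all genes passing for D2 against D3, 0.334% for D4 against D5, 0.0542% for D4 against D6 and 0.163% for D5 against D6.

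At 10 nM D1 against D2 had 5 members (10.7% of all genes), with Ndufv1 at -1.25 ± 0.0833, Atp5j at -0.54 ± 0.0763 and Sdha at -0.33 ± 0.0657, and Uqcrq and Uqcr10 higher, calls lost in 3 and 4 of 11 alternatives. D1 against D3 had 3 (11.3%), and these were Ndufv1 (-1.12 ± 0.0896), Atp5j (-0.50 ± 0.0836) and Sdha (-0.32 ± 0.0659). D2 against D3 had 0 (4.05%). The log2 difference of Ndufv1 between D2 and D3 at 10 nM was 0.13, with an interval of 2 standard errors from -0.0030 to 0.27, so that a difference of that size cannot be told from 0.

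At 50 nM D1 against D2 had 4 members, all lower (14% of all genes), and D1 against D3 had 5, all lower (23.8%). Ndufv1 differed by -1.52 ± 0.116 between D1 and D2 and by -1.27 ± 0.109 between D1 and D3, Atp5j by -0.62 and -0.42, Atp5g2 by -0.45 in both, and Sdha by -0.35 and -0.31. Ndufs8 was called lower against mock with D1 and D3 and not with D2, and the direct comparisons did not separate them. The log2 difference of Ndufs8 was -0.30 between D1 and D2 (interval -0.53 to -0.06, adjusted p = 0.0936) and 0.19 between D2 and D3 (interval -0.02 to 0.40, adjusted p = 0.304). D2 against D3 had 3 members (9.81%), of which Ndufv1 was higher with D2 (0.24 ± 0.0699, adjusted p = 0.0192), a call lost in 2 of 11 alternatives (without replicates numbered 2 or 4), and the 3 became 0 or 1 without any one replicate number.

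Among the Ttr siRNAs, D4 against D5 at 10 nM had 18 members, all higher with D4 (17.2% of all genes in either direction), with Ndufb2 (0.51), Ndufaf1 (0.45) and Atp5j2 (0.37) the largest. These calls were lost in 6, 2 and 1 of 11 alternatives, that of Ndufb2 (adjusted p = 0.0478) also with a replicate block, and its log2 fold change was as small as 0.27. Leaving out any one replicate number reduced these to between 3 and 11. At 50 nM the same pair had 6 (22.9%), 4 higher and 2 lower, the lower being Ndufa8 (-0.45 ± 0.111, adjusted p = 0.00318) and Ndufa10 (-0.27 ± 0.0713, 0.007). Without the libraries numbered 1, 0 were higher and 2 lower. D5 against D6 had 5 members at 10 nM (17.3%) and 3 at 50 nM (20.4%), and Ndufa8 was higher with D5 at both, by 0.42 ± 0.101 (0.0025) and 0.51 ± 0.113 (0.00209). Leaving out 1 replicate number gave 1 to 3 members at 10 nM and 1 to 6 at 50 nM for that pair. D4 against D6 had 1 member at 10 nM (Sdhb, lost in 5 of 11 alternatives; 1.92%) and 0 at 50 nM (4.18%). The log2 difference of Ndufa8 between D4 and D6 at 50 nM was 0.06 with an interval from -0.17 to 0.29.

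Matches to the seed complement were counted on the sense strand of the canonical coding transcript of each gene, as 7 letters (ATCGACA or TCGACAA for the Hao1 siRNAs, CTCTATA or TCTATAA for the Ttr siRNAs). Coding regions were added to the search after values had been seen. For the Hao1 siRNAs 8 of 85 members (9.41%) had a coding match, against 9.95% of the 10672 genes tested with D1 at 50 nM, and 1 (Ndufa9; 1.18%) had a 3′-UTR match, against 2.16%. With D1 at 50 nM 5 of the 8 (Atp5j, Sdha, Ndufs8, Atp5g2 and Atp5pb) were lower, while Atp5g1, Ndufaf3 and Sdhb did not pass. Among all tested genes, 280 of 1062 with a coding match (26.4%) and 1207 of 9376 without any match (12.9%) were lower. With D3 at 50 nM 3 of the 8 members were lower (18.3% of all genes with a coding match and 14.8% without any), and with D2 0 of 8 (2.72% and 3.10%).

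For the Ttr siRNAs 6 of 85 members (7.06%) had a match anywhere in the transcript, against 24.7% of all genes tested with D4 at 50 nM. These were Atp5a1, Ndufaf4, Ndufb3, Ndufs3, Ndufs4 and Uqcrfs1, and 0 of them were lower with D4 at 50 nM, where 780 of 2649 tested genes with a match (29.4%) and 14.9% of those without were lower. Ndufaf4, an assembly factor of complex I with matches in its 3′-UTR, was called lower with D5 at 10 nM (-0.35 ± 0.107, adjusted p = 0.0354), a call lost in 7 of 20 alternatives. Ndufa8 and Ndufa10 had none of these letters in the transcripts searched. A match or its absence is a description of the transcript and was not tested as a cause.

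The subunits encoded in mitochondrial DNA moved apart from the nuclear genes in some groups. Of the 13 genes, 7 were tested, and the other 6, among them mt-Co2 and mt-Co3, averaged under 0.1 CPM where mt-Co1 was at 8446 CPM in mock (only uniquely aligned reads were counted). With D3 at 50 nM all 7 were higher (13.5% of all genes), at a median log2 fold change of 0.28, where the median of the nuclear members was 0.00. At 50 nM of D4 or of D6, 6 of 7 were higher (16.7% and 15% of all genes; medians 0.27 and 0.20), and with D1, D2 and D5 at 50 nM 0 of 7 passed (0.08, 0.11 and 0.02). At 10 nM 6 were higher and 1 lower with D6 (median 0.22), the lower being mt-Nd6 (-0.22 ± 0.0705, adjusted p = 0.017). At that dose 3 were higher with D2 (0.16), 3 with D3 (0.15) and 2 with D4 (0.08), where 11.9%, 1.17%, 8.54% and 12.2% of all genes were higher with D6, D2, D3 and D4, and 0 passed with D1 (-0.05) and D5 (-0.09). The summed level was 26877 to 30539 CPM in mock and 32887 to 35155 CPM with D3 at 50 nM, without overlap. All libraries also lay above mock with D4 at 50 nM (31708 to 36009 CPM), D6 at 50 nM (31862 to 33672 CPM), D6 at 10 nM (31270 to 32670 CPM) and D2 at 10 nM (30893 to 32399 CPM), and the other groups overlapped mock.

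**Figure D5:**
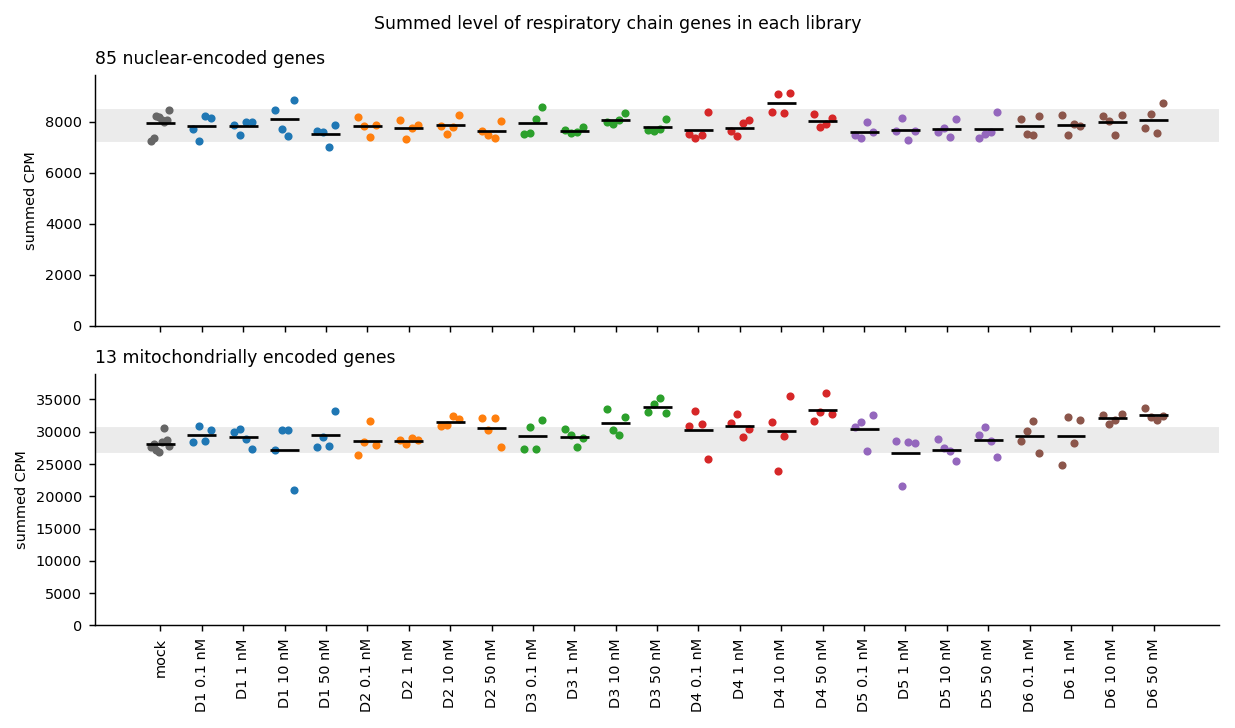
Summed CPM (TMM-scaled, y axis from 0) of the 85 nuclear-encoded genes (top) and of the 13 mitochondrially encoded genes (bottom) in each library by group, with a line at the group mean and a grey band for the range of the 8 mock libraries. The nuclear sums with D3 at 50 nM are 7629 to 8118 CPM, inside the mock band, while the mitochondrial sums are above it.

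Other genes of the pathway came from lists that were also chosen with earlier results known. Their counts at 50 nM stand against the shares of all genes tested, 11.7% higher and 14.2% lower with D1, 3.08% and 2.96% with D2, 13.5% and 14.8% with D3, 16.7% and 17.9% with D4, 4.58% and 1.97% with D5, and 15% and 16.5% with D6. Of 52 tested assembly factors and chaperones of the complexes, 8 of which are members, 2 were higher and 1 lower with D1, 0 and 3 with D3, 7 and 8 with D4, 4 and 5 with D6, and 0 in either direction with D2 and D5. In no 50 nM group was the share of the list above that of all genes. Cox11, which delivers copper to complex IV, fell by 1.14 with D4 at 10 nM and by 1.10 at 50 nM, and by 0.76 with D6 at 50 nM on the log2 scale, and Ttc19, a factor for complex III, fell by 0.63 with D4 at 50 nM. Of 21 or 22 electron carriers, ubiquinone enzymes and related carriers tested, 1 was higher and 4 lower with D1 at 50 nM, 0 and 0 with D2, 2 and 2 with D3, 2 and 1 with D4, 0 and 1 with D5, and 1 and 2 with D6. Slc25a4, an ADP/ATP carrier, fell by 0.39 with D1. Of 17 genes of the tricarboxylic acid cycle, 0 were higher and 3 lower with D1 at 50 nM, 2 and 2 with D3, 2 and 2 with D4, 5 and 3 with D6, and 0 passed with D2 and D5. Fh1 (fumarase) was at 0.66 ± 0.0567 and Cs (citrate synthase) at -0.30 ± 0.0464 with D4.

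Among 16 tested regulators of mitochondrial biogenesis, 1 was higher and 0 lower at 50 nM with D1 and with D2, 1 and 2 with D3, 1 and 3 with D4, 0 and 0 with D5, and 2 and 2 with D6. Ppara, a nuclear receptor that drives fatty acid oxidation, fell by 0.38 with D4 and had 0.41 ± 0.0921 with D3. Of 18 genes of fatty acid oxidation, 0 were higher and 1 lower at 50 nM with D1, 1 and 1 with D3, 3 and 1 with D4, 2 and 0 with D6, and 0 passed with D2 and D5. At 10 nM of D4 5 of them were higher and 0 lower (12.2% and 14.4% of all genes), Hadh among the higher (0.35 ± 0.0704). Of 14 glycolysis genes, 0 were higher and 5 lower at 50 nM with D1, 0 and 8 with D2, 0 and 7 with D3, 1 and 5 with D4, 0 and 1 with D5, and 2 and 7 with D6. Of 12 genes of the integrated stress response, 2 were higher and 3 lower at 50 nM with D1, 0 and 1 with D2, 1 and 9 with D3, 1 and 5 with D4, 1 and 1 with D5, and 0 and 6 with D6, with Phgdh at -1.0 ± 0.0665 with D3. Of 21 interferon response genes, 1 was higher and 0 lower at 50 nM with D1, 2 and 0 with D2, 2 and 1 with D3, 1 and 7 with D4, 0 and 0 with D5, and 0 and 3 with D6. At 10 nM of D6 0 of them were higher and 10 lower (13.9% of all genes lower).

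Markers of hepatocytes were abundant, those of bile duct cells (cholangiocytes) were present, and those of other liver cells were low. The 9 hepatocyte markers found summed to 18188 to 22259 CPM in mock, led by Alb, though Cps1 was at only 4.85 ± 1.07 CPM and Cyp2e1 at 35.5 ± 5.18 CPM. Of 8 macrophage markers, 6 averaged under 0.1 CPM, and Clec4f, Vsig4, Cd5l, Adgre1, C1qa and C1qb were at 0 in mock. The list summed to 16.2 to 23.0 CPM in mock and its level was nearly all Cd68. Endothelial markers summed to 0.830 to 3.12 CPM, stellate and fibroblast markers to 0.373 to 2.04 CPM and lymphocyte markers to 0.584 to 4.48 CPM in mock, with Clec4g, Kdr, Cdh5, Pdgfrb, Des, Ptprc and Nkg7 at 0. In replicate 1 of D3 at 1 nM Col3a1 reached 18.1 CPM. All 5 cholangiocyte markers averaged at least 1 CPM, and they summed to 150.3 to 177.0 CPM in mock, led by Krt19 at 113 ± 9.08 CPM.

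The cholangiocyte markers moved with most of the siRNAs. In every library of D1, D3, D4, D5 and D6 at 10 and 50 nM their sum was above all mock libraries, and with D2 it overlapped mock at both doses. Beside the falls with D1 at 50 nM the sums were 224.8, 236.7, 226.9 and 192.3 CPM, with 2 of 5 markers higher and 0 lower. Beside the calls and the mitochondrially encoded genes with D3 at 50 nM they were 221.7, 219.6, 202.1 and 199.2 CPM, with 4 of 5 higher. With D4 at 10 nM, where 20 members were called higher, they were 201.6, 246.1, 256.6 and 227.1 CPM, with 2 of 5 higher, and Epcam had a log2 fold change of 3.29 ± 0.222 from 1.69 CPM in mock. At 10 nM 4 of 5 were higher with D1, 4 with D3, 3 with D5 and 3 with D6. At 50 nM 2 were higher with D4, 3 with D5, 3 with D6 and 1 with D2. Of all genes tested at 10 nM, 8.43% were higher with D1, 8.54% with D3, 12.2% with D4, 4.58% with D5 and 11.9% with D6. The shares at 50 nM are those given for the lists above.

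Of 9 hepatocyte markers, 2 were higher and 3 lower with D4 at 10 nM, Apob at -0.79 ± 0.161, with sums of 22209, 22540, 21558 and 20455 CPM. Beside the falls of Ndufa8 and Ndufa10, 1 was higher and 3 lower with D4 at 50 nM, 1 and 4 with D6 at 10 nM and 1 and 5 with D6 at 50 nM. At 50 nM 3 markers were higher and 1 lower with D1, and 0 and 0 with D2. With D3 the counts were 3 and 0, and with D5 1 and 0. Of all genes tested at 10 nM, 12.2% were higher and 14.4% lower with D4, and 11.9% and 13.9% with D6. The shares at 50 nM are again those given for the lists. The macrophage list summed to 29.7, 34.9, 37.5 and 21.5 CPM with D4 at 10 nM, with Cd68 higher (0.64 ± 0.128). Cd68, the 1 macrophage marker tested, was also higher with D4 at 50 nM (0.84) and with D5 at 10 nM (0.40). Beside the falls with D1 at 50 nM the 1 lymphocyte marker tested was higher (log2 fold change 0.98). The part of these markers in the results was not tested.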

How the data were processed

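RNA of primary mouse hepatocytes was isolated by the authors on magnetic beads, and libraries were made with a TruSeq stranded kit for total RNA. They were sequenced on a NextSeq500, in 2 runs per library. Per the study's methods, reads were trimmed, aligned with STAR to GRCm39 and uniquely aligned reads were counted per gene with featureCounts 2.0.2; the deposited counts were used as given, after summing both runs. The annotation and strand setting used for counting were not given in the sources used here. The deposited DESeq2 (1.32.0) fold changes and p-values were not used, only their gene symbols.

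The members and all gene lists were chosen with earlier results of these data known. Each comparison was fitted on its own groups across all genes with edgeR 4.0.16 (filterByExpr, TMM, quasi-likelihood F-test) and adjusted by Benjamini-Hochberg over all genes tested. CPM are TMM-scaled. In the text, ± is the SE of a log2 fold change or the SD of levels. Genes were named where they passed the threshold or belonged to the lists; 1 member is kept in all counts but its own values are not reported here. Levels per kilobase used the Ensembl canonical transcript of GENCODE vM39, not the union of exons that had been planned, which inflated lengths. The seed search was extended from 3′-UTRs to coding regions after values were seen. The fit was tested on simulated data. Alternatives were RLE factors, total counts, no filter, DESeq2 1.42.0, run 1 alone, a replicate block, 1 fit of all libraries, the 6 deepest mock libraries and leaving out each library against mock. In comparisons without mock, both libraries of a replicate number were left out together. With the block, mock libraries whose number no siRNA library shares did not enter the difference against mock. Counts of members under the alternatives are given without the shares of all genes. Depth, 3409963 to 6160626 counts, limits precision for genes at a few CPM.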

Additional observations from a re-analysis of the deposited data

Results flagged for a closer look

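In groups of 4 to 8 libraries, 6 of 140 sets of values held a library that stood far from the rest by Dixon's criterion, which chance alone gives in about 1 of 20. The summed level of the 85 genes was 8118 CPM in replicate 4 of D3 at 50 nM against 7629 to 7703 in the other libraries of its group. Atp5j was 71.6 CPM in replicate 3 of D1 at 10 nM against 64.6 to 65.7, and still below all mock libraries. Atp5g2 was 16.3 CPM in replicate 4 of D1 at 50 nM against 20.2 to 20.8. Atp5d was 190.4 CPM in replicate 2 of D4 at 10 nM against 132.6 to 140.1, in the library that also stood apart over all genes. Atp5md, a small membrane subunit of complex V, was 71.8 CPM in replicate 4 of D4 at 10 nM against 63.0 to 63.7. Ndufc2, a complex I accessory subunit, was 36.2 CPM in replicate 1 of D5 at 50 nM against 41.1 to 42.0.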

How the results depend on the processing

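No value changed sign among the called results. The median of the 85 genes with D3 at 1 nM, -0.06, was -0.0743 with total counts, 0.0047 with a replicate block and -0.0880 with the 6 deepest mock libraries. With the replicate block it was 0.04996 for D3 and 0.0814 for D4 at 50 nM against mock, where 0.00 and 0.03 were found without it. Leaving out both libraries of a replicate number gave medians of -0.0273 to 0.0283 for D3 at 50 against 0.1 nM, 0.0513 to 0.137 for D4 at 50 against 0.1 nM and 0.0358 to 0.132 for D4 against D5 at 50 nM. Leaving out each library gave -0.0290 to 0.01215 for D3 and 0.0150 to 0.0604 for D4 at 50 nM against mock. Members called against mock at 0.1 and 1 nM, 2 in all, were 1 with run 1 alone and 1 with the block. At 50 nM, 37 calls became 23 with run 1 alone and 24 to 40 with libraries left out. The 23 calls of 50 against 0.1 nM became 14 with DESeq2 and 11 to 26 with a replicate number left out. Calls between siRNAs at 0.1 and 1 nM, 4 in all, were 2 with run 1 alone and 2 in 1 fit of all libraries. At 10 nM, 32 became 54 in that fit and 13 to 19 with a replicate number left out, and at 50 nM 21 became 32 with total counts, 32 with the block and 13 to 25 with a replicate number left out. Replicate numbers are not said to mark a shared batch, and over all genes deviations of 1200 same-numbered pairs of libraries correlated at 0.0299 on average (280 over 0.1) and those of 3984 other pairs at -0.00877 (591 over 0.1), so that no pairing was assumed. In the summed level of the 85 genes, however, replicate 4 was the highest library in 16 of 24 siRNA groups and the lowest in 0, and replicate 2 was the lowest in 12. With the block, members higher and lower against mock were 12 and 2 in place of 3 and 4 with D6, 8 and 2 in place of 5 and 4 with D4, 4 and 3 in place of 1 and 7 with D3, and 0 and 5 in place of 0 and 10 with D1, all at 50 nM. Mock libraries whose number no siRNA library shares did not enter these blocked differences. The shares of all genes in the blocked fits are not given, so these counts do not set the members apart from all genes. The causes were not tested.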
